A study of Mus musculus with 4 samples.

Results

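The 36 genes described here encode the machinery of mitosis, the stage of the cell cycle in which a cell separates its copied chromosomes and divides. They were chosen by name (Cdk1, the cyclins Ccnb1, Ccnb2 and Ccna2, the Aurora and Polo-like kinases, kinetochore and spindle proteins, and the partners of Cdc20 in protein degradation), with earlier results of these data known but by no threshold on a measured value, and all 36 were found, each as 1 row, among the 33696 genes of the matrices. Their UMIs (unique molecular identifiers, each standing for 1 captured RNA molecule) were counted over cell barcodes that reached 500 genes and 1000 UMIs and whose mitochondrial share stayed at 10% or below. This left 31209 of 34670 barcodes. The members held 355030 UMIs in the Control library, 261511 in Butyrate, 363613 in B12 and 305634 in B12+Butyrate.

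The cells are bone marrow of mice that were lethally irradiated and rebuilt from a 50:50 mix of CD45.1+ Tet2+/+ and CD45.2+ Tet2+/- marrow. Only the CD45.2+ cells, the progeny of the Tet2+/- donors, were sequenced, so every group, Control included, carries the loss of 1 allele of Tet2, a gene whose product oxidises methylated cytosine. After 1 month of engraftment the mice were treated for 7 months, with 2 intraperitoneal injections a week of PBS or of 0.29 µg vitamin B12, and with 100 mM NaCl or 100 mM sodium butyrate in the drinking water. Control mice received PBS and NaCl, Butyrate mice PBS and butyrate, B12 mice B12 and NaCl, and B12+Butyrate mice both agents. Frozen marrow of 3 mice per group was pooled, live CD45.2+ cells were sorted into Kit+ and Kit- fractions, these were put together 50:50, and each mix was made into 1 library with the 10x Genomics 3' kit. The portion of Kit+ cells is therefore set by the sort, and the share of dividing cells in these libraries is not that of whole marrow. No group has a replicate, so no test between groups was possible; intervals below cover counting error alone, and those on summed UMIs are too narrow, since the UMIs of 1 cell come together.

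A cell enters mitosis when Cdk1 binds a B-type cyclin. Polo-like and Aurora kinases then build the spindle, kinetochore proteins tie chromosomes to its microtubules, and checkpoint kinases hold division back until every chromosome is attached. Cdc20 afterwards directs the anaphase-promoting complex, with the ubiquitin-conjugating enzyme Ube2c, to destroy the cyclins and release the chromosomes. In marrow, stem and progenitor cells and the granule-making precursors of neutrophils divide, whereas mature neutrophils and resting lymphocytes do not. Transcription of these genes is known to depend on the MuvB complex, which binds the CHR element TTTGAA, and on NF-Y, which binds CCAAT boxes, both near the start of the gene.

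Those elements can be read in the members' own promoters. The stretches below, from RefSeq on mouse build GRCm38.p6, are the 120 bases before the start of 7 genes named in the results that follow. They are shown because CCAAT occurs 2 or more times in 6 of the 7 and TTTGAA at least 1 time in 5. They were thus picked for these motifs, and Mki67, Birc5 and Plk1, named more often than Kif11, are not printed. Capitals mark the CHR element TTTGAA, its variant TTCGAA and the CCAAT box on either strand. Read on the opposite strand the element is TTCAAA and the box is ATTGG, and the variant is its own reverse complement.
Cdk1, chr10:69352913-69353032, minus strand: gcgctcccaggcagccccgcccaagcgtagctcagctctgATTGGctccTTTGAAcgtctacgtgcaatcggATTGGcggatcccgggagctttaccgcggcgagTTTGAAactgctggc
Ccnb1, chr13:100786487-100786606, minus strand: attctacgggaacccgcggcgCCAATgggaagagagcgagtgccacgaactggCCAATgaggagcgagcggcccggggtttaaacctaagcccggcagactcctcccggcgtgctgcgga
Ccnb2, chr9:70421555-70421674, minus strand: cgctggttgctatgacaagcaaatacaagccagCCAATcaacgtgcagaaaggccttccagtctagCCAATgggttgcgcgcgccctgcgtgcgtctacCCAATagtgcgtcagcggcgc
Kif11, chr19:37376262-37376381, plus strand: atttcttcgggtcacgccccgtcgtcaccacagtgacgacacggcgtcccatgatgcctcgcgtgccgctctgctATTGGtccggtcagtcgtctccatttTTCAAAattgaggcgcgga
Top2a, chr11:99024190-99024309, minus strand: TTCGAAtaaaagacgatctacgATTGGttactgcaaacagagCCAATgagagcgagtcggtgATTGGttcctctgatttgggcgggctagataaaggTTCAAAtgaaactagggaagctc
Cdc20, chr4:118437344-118437463, minus strand: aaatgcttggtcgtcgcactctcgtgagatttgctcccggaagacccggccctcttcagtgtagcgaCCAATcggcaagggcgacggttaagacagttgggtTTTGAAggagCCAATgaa
Ube2c, chr2:164769809-164769928, plus strand: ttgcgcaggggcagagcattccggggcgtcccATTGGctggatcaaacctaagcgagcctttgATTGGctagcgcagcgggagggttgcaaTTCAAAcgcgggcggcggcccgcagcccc

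Windows of 250 bases before to 50 bases after the start were on hand for 32 of the 36 genes (34 windows, since some genes have more than 1 start). Ccna2, Aurkb, Tpx2 and Kif20a had none. TTTGAA lay on either strand in 28 of the 34 windows (82.4%), against 17.9% of all 32851 windows and 10.3% of the 29 windows of a list of S-phase (DNA replication) genes. CCAAT lay in 27 (79.4%), against 37.4% of all windows, and 2 or more CCAAT in 20 (58.8%), against 11.7%. CCAAT together with TTTGAA or TTCGAA was found in 73.5% of the members' windows and in 7.52% of all. The other mitosis genes had both in 35.6% of windows and the S-phase genes in 10.3%. Of 40 pairs of neighbouring CCAAT boxes, 10 stood 31 to 35 bases apart, in 9 genes. The pairs of Ect2 were counted in each of its overlapping windows. Spacing was not counted over all windows, so this number is not read as high or low. Birc5, Nuf2 and Nusap1 held none of the 3 motifs, and Ccnb1 and Cenpe held CCAAT alone. TTTGAA lay before the start in some windows (positions -71 and -15 in Cdk1) and after it in others (33 in Aurka). In Ccnb2 it lay at -167 and 5, both outside the stretch printed above. These matches describe letters in a window and are not measured binding sites.

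Over all cells the 36 genes together stood at 2938 CPM (counts per 1000000 UMIs) in Control, 2823 in Butyrate, 3172 in B12 and 2757 in B12+Butyrate. B12 was the highest library and B12+Butyrate the lowest. For 32 of the 36 genes the B12 library had the highest level, for 3 (Cenpa, Ect2 and Hmmr) Control, and for Kif23 Butyrate. The lowest level was in B12+Butyrate for 22, in Butyrate for 9, in Control for 5 and in B12 for 0. Median UMIs per cell were 11583.5, 11807, 12544.5 and 12315 in the order Control, Butyrate, B12 and B12+Butyrate, which is the order of any 4 values in a row from here on. The 2 libraries with B12 were thus the deepest, 1 of them with the highest and 1 with the lowest level of the members.

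**Figure D1:**
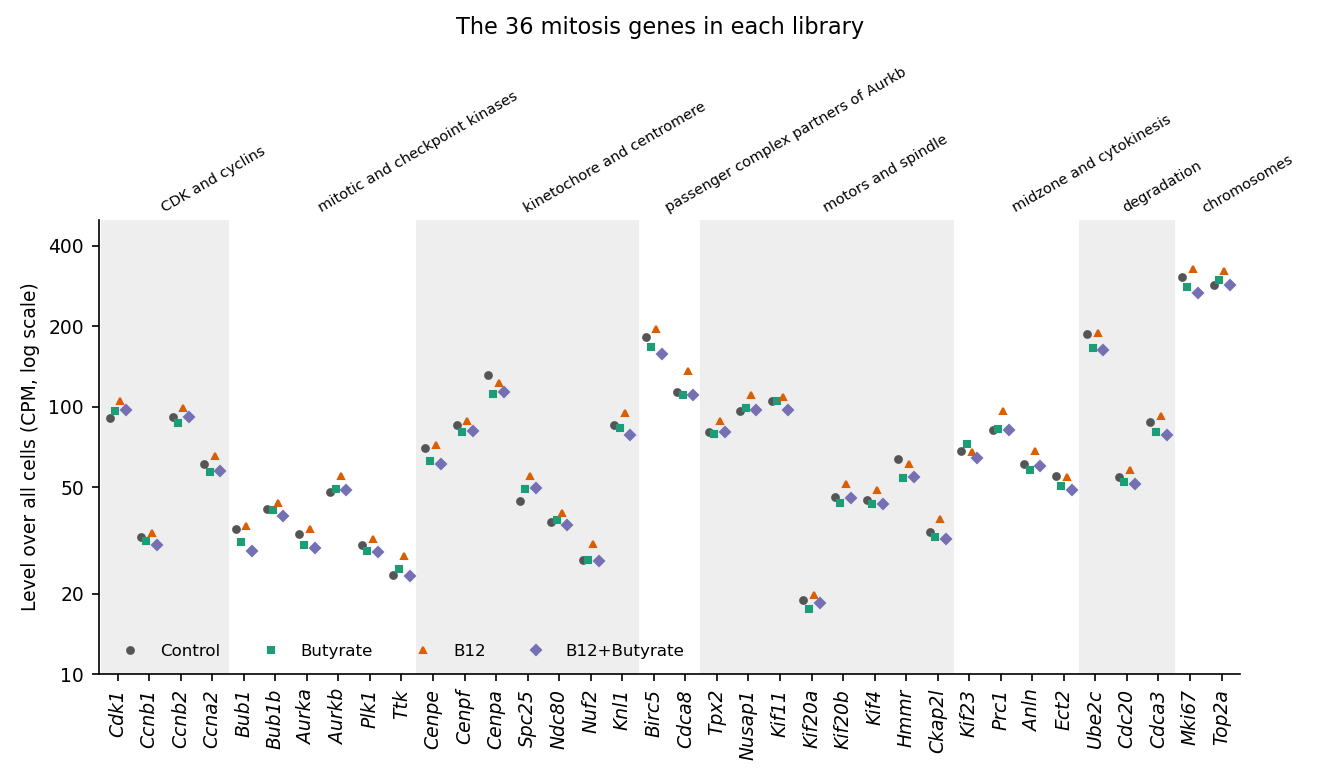
Level of each of the 36 genes over all kept cells (CPM, log scale), 1 point per library, grouped by role. Points of a gene lie close together compared with the distance between genes, and the B12 triangle is the highest of 4 for 32 genes.

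Among the genes that start mitosis, Cdk1, its catalytic kinase, stood at 90.5, 96.2, 105 and 97.2 CPM. Ccnb1, the main mitotic cyclin, stood at 32.7, 31.5, 33.8 and 30.5 CPM. Plk1, the Polo-like kinase of entry and spindle assembly, stood at 30.4, 28.8, 32.1 and 28.5 CPM. For each of the 3, the highest and the lowest library differed by less than the limit used for calls below. Mki67, whose protein coats mitotic chromosomes and is the usual stain for cycling cells, had 304, 279, 327 and 265 CPM. Top2a, the topoisomerase that untangles sister chromosomes, had 285, 299, 323 and 285 CPM. The pair differed in Butyrate, where Mki67 was below Control and Top2a above it. Birc5 (survivin), which with Cdca8 places Aurkb at the centromere, had 183, 167, 196 and 158 CPM. Ube2c had 187, 166, 188 and 162 CPM, and Cdc20 had 54.7, 52.5, 58.0 and 51.2 CPM. Each role kept nearly the same share of the summed level in all 4 libraries: CDK and cyclins 9.40 to 10.1%, mitotic and checkpoint kinases 7.20 to 7.28%, kinetochore and centromere 15.9 to 16.4%, motors and spindle 16.6 to 17.0%, and degradation 10.6 to 11.2%.

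Each cell was then thinned to 2000 UMIs, so that deep and shallow cells compare, and called mitosis-positive with 5 or more member UMIs (2500 CPM). Of 30559 cells deep enough, positive cells made up 27.3% of Control (95% exact binomial interval 26.4 to 28.3), 25.4% of Butyrate (24.4 to 26.5), 31.6% of B12 (30.6 to 32.7) and 24.6% of B12+Butyrate (23.7 to 25.6). Close to the limit, with 4 or 5 UMIs, lay 458, 302, 489 and 364 cells. Cells with any member UMI were 54.5, 50.3, 57.1 and 48.6% after thinning and 74.7, 70.6, 73.2 and 69.2% before it, so a single UMI marks far more cells than the limit of 5 does. T-like cells, which rest in marrow, give the background: 18.3 to 28.8% of them had a member UMI after thinning, but only 0.345 to 1.71% were positive. A positive cell had a median of 20020, 20339, 19719 and 22001 UMIs, compared with 9511.5, 9720, 10000 and 10311 in the other cells of its library. More RNA in a dividing cell, fuller capture and 2 cells under 1 barcode cannot be told apart from this value.

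How often a member is seen in a thinned cell depends on its level, so these shares do not show that members mark different cells. Mki67 was seen in a mean of 66.6% of positive cells after thinning and Top2a in 63.6%, Birc5 in 49.8% and Ube2c in 41.2%, whereas Kif20a, a motor of cytokinesis with under 1% of the members' UMIs, was seen in 7.2%. In the other cells Mki67 was still seen in 8.9% and Top2a in 6.5%. Sharpest were Nusap1 and Plk1: 93.5% of the UMIs of each lay in cells called positive by the other 35 genes (means over the libraries), and 92.8% of those of Ccnb1. Least sharp were Ccnb2 (66.8%), Cenpa (68.4%), the histone variant of centromeres, and Kif23 (75.1%). Kif23, a motor of the spindle midzone, and Cenpa also kept a floor in mature neutrophils: in stage 4, defined below, Kif23 stood at 22.8, 23.1, 24.9 and 22.2 CPM and Cenpa at 21.0, 17.1, 19.7 and 21.4 CPM, while Ccnb1 had 11, 0, 1 and 1 UMIs in all. UMIs of Ccnb1 and Plk1 thus lay more narrowly in mitosis-positive cells than those of Ccnb2, Cenpa or Kif23.

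The members also fell in an order by how far they overlapped with DNA replication. Cells were called S-positive with 5 or more of 2000 UMIs from a list of 30 replication genes (the Mcm helicase, Pcna, Rrm2 and others). Of the UMIs of Top2a, 51.5% lay in S-positive cells (50.0 to 52.8% over the libraries). Ttk followed at 51.2%, the spindle motor Kif11 at 49.6%, the kinetochore protein Ndc80 at 49.0%, Aurkb at 48.5% and Cdk1 at 48.1%. At the other end stood Cdc20 at 19.6% (15.7 to 22.9%), Ube2c at 19.7%, Cenpa at 21.2%, Cenpf at 21.9%, Ccnb2 at 23.5%, Ccnb1 at 24.3% and Hmmr at 24.6%. The ranges of Top2a and Cdc20 over the libraries did not overlap. Neighbours in the order did not differ beyond the spread between libraries: Bub1, at a mean of 47.7%, ranged from 44.2 to 54.3%. Cdc20, Ube2c and the B-type cyclins, at the low end, are known to act in mitosis proper and at its exit. Ttk, Ndc80 and Aurkb, at the high end, also act in mitosis proper. The order is therefore not read as that of their time of action. S-positive cells were 44.3, 45.7, 46.6 and 44.2% of mitosis-positive cells in the 4 libraries.

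**Figure D2:**
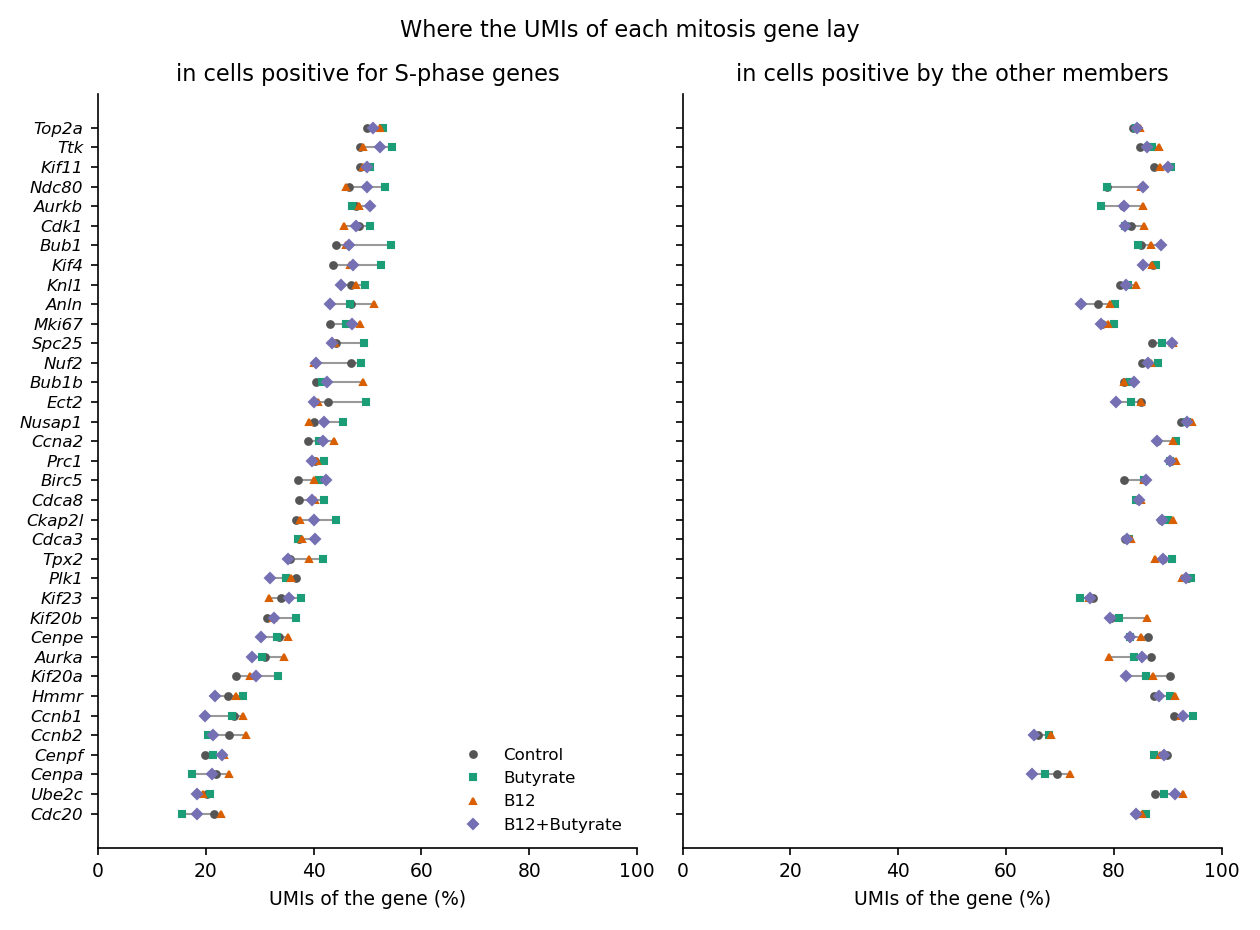
For each of the 36 genes, the share of its UMIs (%) in S-positive cells (left) and in cells that are mitosis-positive by the other 35 genes (right), 1 point per library with the range as a line. Cdc20, Ube2c, Cenpa and Cenpf lie near 20% on the left, Top2a and Ttk near or above 50%, and on the right Ccnb2 and Cenpa lie below the rest.

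Genes outside the list also differed between positive and other cells. Among genes at 50 CPM or more over all cells, the 10 with the highest median ratio of positive over other cells of the same class and library (32 class-library pairs) were H3c3 (log2 ratio 3.11), H2ac4 (2.84), H1f5 (2.66), H2ac10 (2.63), H2ac8 (2.53), H4c4 (2.46), H2ax (2.42), Kif15 (2.31), H2ac20 (2.30) and H1f4 (2.22). All but Kif15, a spindle motor, are histones, whose genes are known to be transcribed in S phase. Of 22 other spindle and cytokinesis genes at 10 CPM or more over all cells, 22 were higher in positive cells (median 1.75, from Stmn1 at 0.90 to Kif22 at 2.40), and of 16 condensin and cohesion genes 15 (median 1.31, Sgo2a highest at 1.90 and Pttg1, securin, lowest at -0.05). The replication list itself was split: 17 of 29 were higher, with a median of 0.13, from Rrm2 at 1.13 to Hells at -0.50. Of the regulators of these genes, Foxm1, the factor that drives late cell cycle transcription, was higher by 1.70, and all 10 of its list were higher with a median of 0.46. Early G1 genes were not (4 of 9 higher, median -0.11). Among inhibitors of the cycle, 5 of 7 were higher, led by Cdkn2d at 1.18, and Btg1, a gene of quiescence, was lowest at -0.36. The antigen-presentation genes Cd74 (-1.42) and H2-Aa (-1.14) had the lowest medians of all genes at 50 CPM or more. Over the 32 pairs they ranged from -5.14 to 1.78 and from -4.82 to 2.12, so they were not lower in every pair. Because the same UMIs called the cells positive, these ratios describe the cells and test nothing.

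Cells were placed in 16 named classes by UMIs of marker genes. Cells with markers of more than 1 lineage (351, 215, 194 and 188, of which 86.6 to 95.2% were called doublets) and cells that passed no gate (310, 237, 288 and 180) were kept apart. The neutrophil lineage was taken as cells with at least 1000 of 10000 UMIs from secondary granule genes (Camp, Ltf, Ngp, S100a8 and others) and divided by primary granule genes such as Elane and Mpo and by maturation genes such as Mmp8 and Retnlg into stage 1 (primary granule genes still on), stage 2, stage 3 and stage 4 (mature). In the order of their positive share, stage 1 and stage 2 neutrophils and early monocyte-like cells, which still hold primary granule genes, led in all 4 libraries (42.9 to 61.4%). HSC/MPP-like cells, the stem and multipotent progenitors, had 24.6 to 31.4%, GMP-like cells, the granulocyte and monocyte progenitors, 27.7 to 31.5%, plasmacytoid dendritic-like cells 23.8 to 28.6%, B-progenitor-like cells 24.1 to 28.0%, conventional dendritic-like cells 19.8 to 29.1%, basophil/mast-like cells 16.7 to 30.8% and late monocyte-like cells 16.4 to 20.6%. Late monocyte-like cells lay below GMP-like cells with intervals apart in Control, B12 and B12+Butyrate (in Butyrate they overlapped). The small classes among these 7 had wide intervals, and their order is not read here. Stage 3 neutrophils (2.67 to 10.5%), stage 4 (0.686, 0, 0.324 and 0.119%, where 0 of 416 cells has an exact upper limit of 0.883%, and 3 counts would be 0.721%), B-like (1.10 to 1.95%) and T-like cells (0.345 to 1.71%) came last.

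**Figure D3:**
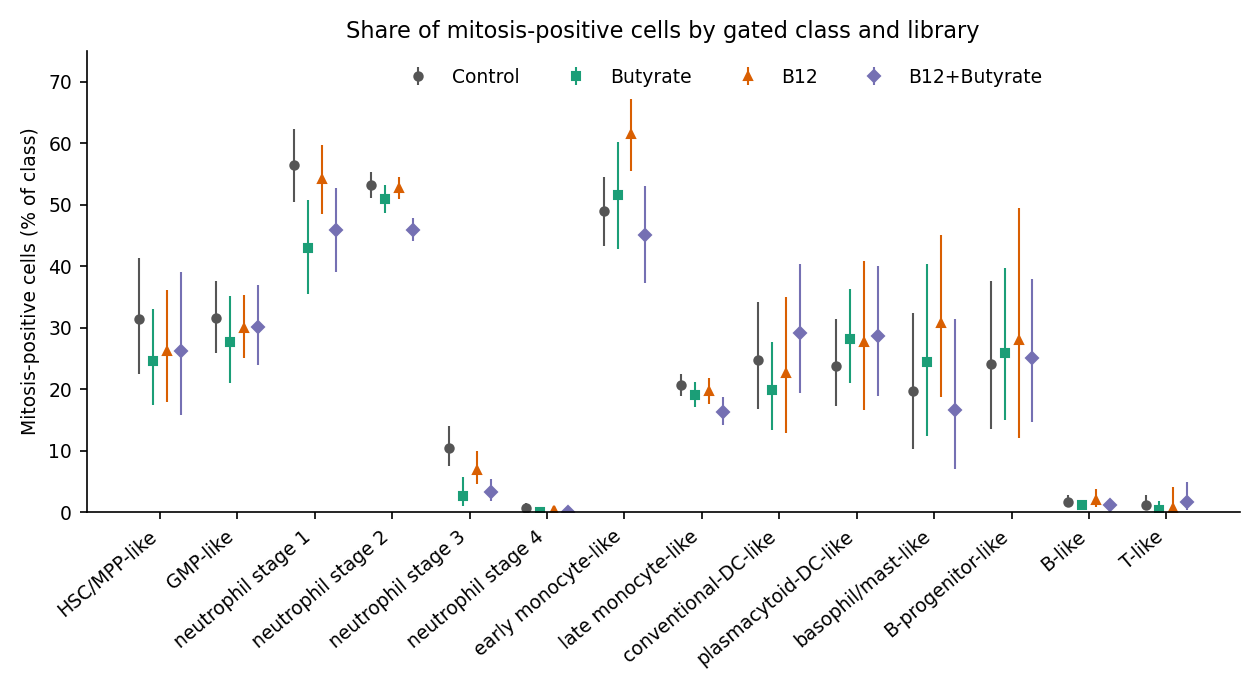
Share of mitosis-positive cells (% of the class, cells thinned to 2000 UMIs) in 14 gated classes, 1 point per library with its 95% exact binomial interval. Stage 1 and 2 neutrophils and early monocyte-like cells lie above 40% in every library, and mature neutrophils, B-like and T-like cells at 2% or less.

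The genes with the highest fold in each class include some of its markers. The gates used those markers, so this was set in advance and does not test the class names. Of the 10 leading genes of the HSC/MPP-like class, 5 are in its marker list (Mecom, Meis1, Angpt1, Adgrg1 and Cd34). Early monocyte-like cells had 1 of their own markers among 10, and late monocyte-like and stage 3 cells 2 each. Elane and Mpo lead in GMP-like and stage 1 cells. Eosinophil granule genes (Epx, Prg2 and Prg3) also lead in the basophil/mast-like class. Ptprc, which encodes CD45, stood at 771, 712, 607 and 679 CPM. Stage 2 alone gave 49.6, 58.4, 62.3 and 67.4% of all positive cells, and late monocyte-like cells 18.0, 16.7, 11.2 and 9.87%. Most positive cells of each library were thus stage 1 or stage 2 neutrophils.

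GMP-like cells and stage 2 neutrophils differed in the balance of replication and mitosis genes. In GMP-like cells 62.0 to 73.5% were S-positive but the members summed to only 1764 to 2041 CPM, with Ube2c at 63.9, 57.1, 53.1 and 68.5 CPM and Mki67 at 183, 137, 164 and 144 CPM. In stage 2, 29.1 to 35.1% were S-positive and the members summed to 3906 to 4395 CPM, with Ube2c at 297, 269, 293 and 260 CPM and Mki67 at 458, 420, 460 and 384 CPM. For these genes every stage 2 library was above every GMP-like library, within classes whose total RNA content differs (CPM is relative to the class's own UMIs).

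Along the neutrophil lineage the positive share declined step by step as maturation genes came on. In cells with under 5 maturation UMIs per 10000 it was 67.8, 63.2, 66.7 and 61.2%, at 5 to 10 it was 55.9, 51.6, 54.4 and 48.5%, at 10 to 20 it was 33.0, 22.2, 25.8 and 18.7%, and at 20 to 40 it was 13.9, 8.2, 11.7 and 7.7%. Control lay highest in each of the 8 bins, and both libraries with butyrate lay below their partner without it in the first 4 bins. Compared with Control, Butyrate was lower in 8 of 8 bins, by up to 10.8 percentage points, with intervals apart in 2. B12+Butyrate was lower than B12 in 7 and equal in 1, by up to 7.09 points, with intervals apart in 1. B12 was lower than Control in 8 of 8 but with overlapping intervals in all of them. Since the libraries hold different shares of each bin (28.4, 36, 34.1 and 31.3% of the lineage in the first), the whole lineage was also set to 1 common bin makeup: the positive share was then 39.9, 35.1, 37.9 and 33.5%, compared with 36.8, 38.8, 38.3 and 32.4% as found. At the common makeup Butyrate moved from above to below Control. With called doublets removed the same values were 38.3, 34.5, 36.7 and 32.5%. Bin by bin, without doublets, Butyrate was still lower than Control in 8 of 8, but with intervals apart in 0, and B12+Butyrate was lower than B12 in 4 and equal in 4, with intervals apart in 1.

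**Figure D4:**
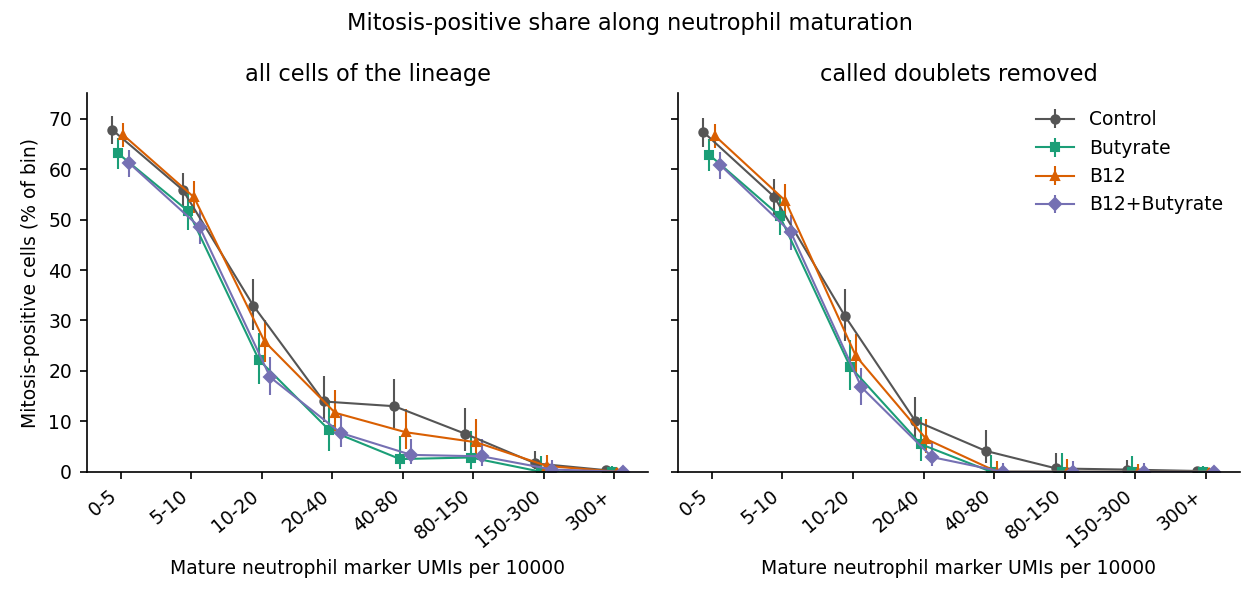
Share of mitosis-positive cells (%) in 8 bins of mature neutrophil marker UMIs per 10000, for the 4 libraries, with 95% exact binomial intervals, for all cells of the lineage (left) and without called doublets (right). The share falls from over 60% to near 0; past 40 marker UMIs the positive cells of the left panel are nearly absent on the right.

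Positive cells of late maturation were largely among the called doublets. In stage 3 the share was 10.5% (7.56 to 14.1), 2.67% (0.985 to 5.71), 6.93% (4.58 to 9.99) and 3.22% (1.77 to 5.34), from 39, 6, 26 and 14 cells, and called doublets were 13.9, 7.96, 13.5 and 11.5% of the class. Mki67 stood there at 142, 42.2, 98.9 and 46.6 CPM and Nusap1, a spindle protein, at 59.9, 10.4, 34.3 and 17.3 CPM. Both libraries without butyrate were above both with it. At 40 to 80 maturation UMIs the positive share was 13, 2.5, 7.8 and 3.3%, and without called doublets 4.1, 0, 0 and 0% (0 of 110, 176 and 208 cells, with exact upper limits of 3.30, 2.07 and 1.76%). From here on a gene is called where its log2 ratio, with 10 CPM added to each level, is 0.32 or more in size (a fold of 5 over 4), and a member counts as measured where 1 of the libraries compared has it at 10 CPM or above. All 35 measured members were called lower in Butyrate than in Control (14.1% of all genes were; 6.51% were called higher), and 27 of 31 in B12+Butyrate than in B12 (7.38%; 3.35% higher). In B12 over Control 25 of 35 were called lower (7.21%; 1.66% higher). In B12+Butyrate over Butyrate 5 of 23 were called higher and 2 lower (3% and 5.79% of genes). Without called doublets the summed level of B12+Butyrate over B12 turned from a log2 ratio of -0.855 to 0.0667. For B12 over Control it went from -0.626 to -2.51 and for Butyrate over Control from -1.59 to -2.57. The stage 3 values thus depend on the doublets. Control stayed above the others without called doublets, but from few positive cells. These were 7 of 169 at 40 to 80 maturation UMIs and 1 of 151 at 80 to 150. The interval of Control at 40 to 80 (1.68 to 8.35%) overlapped those of the other libraries.

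Between whole libraries no member was called in any of the 4 comparisons, which share libraries in pairs. For B12 over Control, 32 members were higher and 4 lower, with a median log2 ratio of 0.09 (from -0.09 for Cenpa to 0.25 for Spc25) beside -0.06 over all genes; 0.825% of all genes were called higher and 6.29% lower. The highest were Spc25, Cdca8 and Prc1, which act at the kinetochore, the centromere and the spindle midzone. For Butyrate over Control, 10 were higher and 26 lower (median -0.04; all genes 0.00; 1.71% of genes called higher, 1.1% lower), with Cenpa (-0.22) and Hmmr (-0.20) lowest and Spc25 (0.12) highest. For B12+Butyrate over B12, all 36 were lower (median -0.15, from -0.30 for Birc5 to -0.06 for Kif23; all genes -0.02; 2.46% called higher, 0.631% lower). For B12+Butyrate over Butyrate, 11 were higher and 25 lower (median -0.02; all genes -0.07; 0.864% higher, 5.19% lower). The ratio of positive shares was 1.16 for B12 over Control (counting interval 1.10 to 1.21), 0.930 for Butyrate over Control (0.881 to 0.981), 0.780 for B12+Butyrate over B12 (0.741 to 0.821) and 0.970 for B12+Butyrate over Butyrate (0.916 to 1.03).

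B12 was not above Control at an equal class makeup. With every library set to the class makeup of Control, the positive share was 27.3, 25, 26.9 and 23.1% and the summed level 2938, 2736, 2926 and 2581 CPM. B12 then lay slightly below Control, while B12+Butyrate stayed the lowest. The gates were set after values had been seen, and the part of makeup in the difference was not tested otherwise. In a sum over mixed cells, more cells of a dividing class and more mitotic RNA in each cannot be told apart without such classes. The replication list ran alongside: 27 of 29 of its genes were higher in B12 than in Control (median 0.11) and 0 of 29 in B12+Butyrate than in B12 (-0.14).

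**Figure D5:**
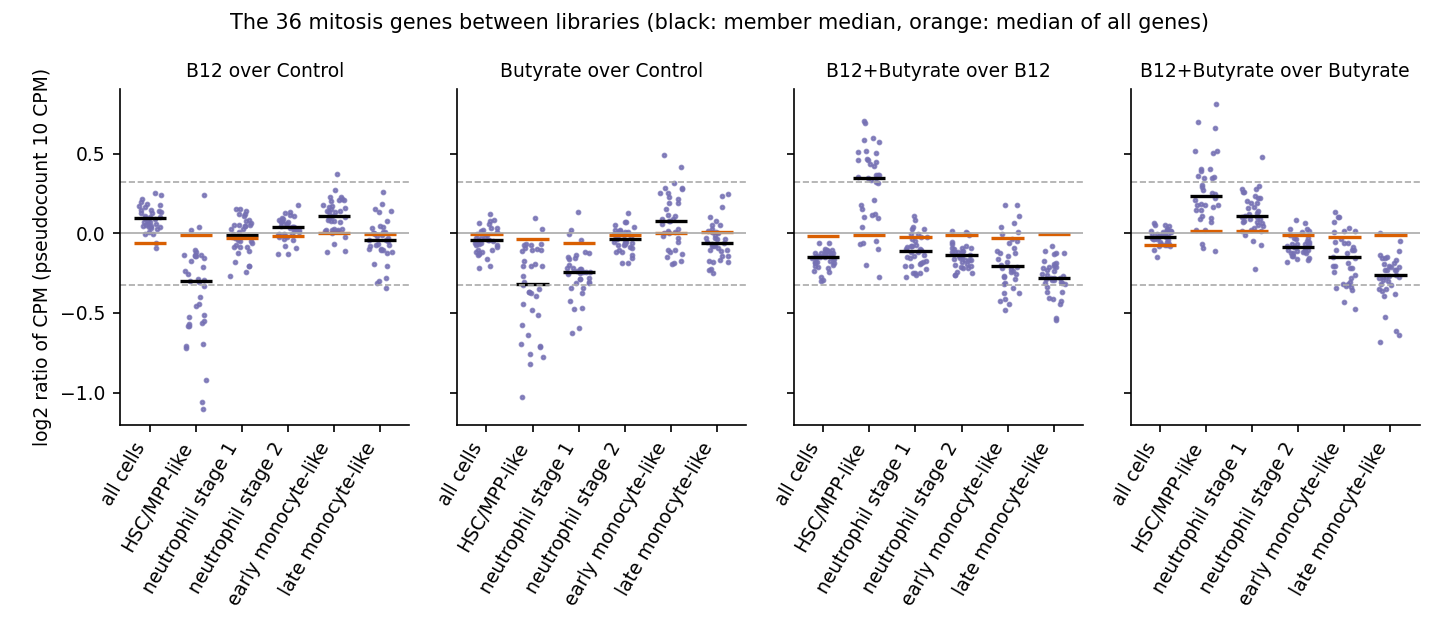
Log2 ratio of each of the 36 genes (CPM with a pseudocount of 10 CPM) in 4 comparisons, for all cells and 5 classes; black bars are member medians, orange bars the medians of all genes, dashed lines the limit of 0.32 in size. All points of all cells lie inside the dashed lines, HSC/MPP-like points spread widest, and late monocyte-like points lie below 0 in both comparisons of B12+Butyrate except Anln in the last.

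In stage 2 neutrophils, the class with most of the positive cells, 53.2% (51.1 to 55.3), 51% (48.7 to 53.2), 52.7% (50.8 to 54.5) and 45.9% (44.0 to 47.8) were positive. B12+Butyrate was the low library, with an interval apart from the other 3. Against B12, 33 of 36 members were lower and 3 higher (median -0.14; 0 called; 0.209% of genes called higher and 0.269% lower), and against Butyrate 30 were lower and 6 higher (median -0.08; 0.149% and 0.328%). Cdca8 stood at 167, 169, 190 and 156 CPM, Knl1, the kinetochore scaffold, at 118, 113, 126 and 104 CPM, and Mki67 was given above; these 3 had the lowest ratios to B12. Ccnb1 at 43.2, 42.9, 42.8 and 43.2 CPM, Ccnb2 at 121, 123, 128 and 129 CPM and Kif20a at 27.7, 25.8, 27.6 and 28.0 CPM had the highest and hardly differed. Birc5 stood at 255, 244, 262 and 220 CPM and Top2a at 406, 422, 430 and 382 CPM, both lowest in B12+Butyrate. Cdc20, at 79.1, 80.03, 81.9 and 78.4 CPM, and Plk1, at 46.2, 46.8, 47.9 and 44.2 CPM, differed little, and Cdk1, at 135, 149, 145 and 136 CPM, was lowest in Control. B12 and Control differed little there (23 of 36 higher, median 0.04; 0.488% and 0.577% of genes called), as did Butyrate and Control (11 higher, median -0.03; 0.487% and 0.561%). Split by maturation, the members summed to 5051, 4855, 4980 and 4706 CPM under 5 maturation UMIs per 10000 and 4477, 4226, 4701 and 4089 CPM at 5 to 10, so both butyrate libraries were below both others within each split.

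Stage 1 neutrophils were fewer (287, 170, 318 and 216 cells), with 56.4% (50.5 to 62.3), 42.9% (35.4 to 50.7), 54.1% (48.4 to 59.7) and 45.8% (39.1 to 52.7) positive. Both butyrate libraries were below both others, with intervals that overlapped in every pair; the ratio of Butyrate to Control was 0.761 (0.622 to 0.930). Of 36 members 34 were lower in Butyrate than in Control, 8 of them called (median -0.24; 5.61% of genes called lower, 1.64% higher). Ect2, which starts the cleavage furrow, had the lowest ratio, at 66.1, 39.3, 56.2 and 46.6 CPM, followed by Ube2c at 175, 113, 165 and 137 CPM and Cenpf at 83.9, 57.6, 71.5 and 73.0 CPM. Cdc20 at 59.8, 66.7, 62.2 and 55.6 CPM and Cdk1 at 122, 124, 132 and 118 CPM were not lower. Against B12, B12+Butyrate had 31 members lower and 5 higher, 0 called (median -0.11; 1.69% lower, 0.907% higher), and Mki67 ran at 397, 311, 383 and 315 CPM. B12 and Control differed little here (17 higher, 19 lower, 0 called, median -0.01; 0.936% of genes called higher, 2.86% lower). In B12+Butyrate over Butyrate 32 were higher, with only Prc1 called, at 80.02, 59.3, 88.1 and 86.5 CPM (median 0.11; 1.37% higher, 2.24% lower). Called doublets were 13.2, 8.82, 15.4 and 10.2% of this class, highest in the 2 libraries with the higher levels. The caller marks a set share of each library, larger where there are more cells, so this order was partly fixed beforehand. Without called doublets 5 members were called lower in Butyrate than in Control, beside 5.60% of all genes.

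Early monocyte-like cells held the highest positive share of the B12 library: 61.4% (55.5 to 67.2), compared with 48.9% (43.2 to 54.6) in Control, 51.5% (42.7 to 60.2) in Butyrate and 45.1% (37.2 to 53.1) in B12+Butyrate. The share in B12 was 1.26 times that in Control (1.09 to 1.45), and that in B12+Butyrate was 0.734 times that in B12 (0.604 to 0.890). Of 36 members 32 were higher in B12 than in Control, with 1 called (Prc1, the bundler of midzone microtubules, at 93.1, 115, 123 and 106 CPM; median 0.11; 1.48% of genes called higher, 3.31% lower). Against B12, 30 were lower in B12+Butyrate and 7 called (median -0.20; 4.15% of genes called lower, 3.1% higher), or 14 without called doublets (4.91% of genes called lower there). Ccna2, the cyclin of S phase and G2, stood at 96.8, 89.3, 98.6 and 67.7 CPM, Ccnb2 at 118, 103, 144 and 103 CPM and Cdca8 at 141, 147, 164 and 119 CPM. Cenpf went the other way, at 66.9, 97.9, 60.7 and 70.1 CPM. S-positive cells were 69.5, 73.9, 76.8 and 82.7% of the class, highest in the library with the lowest mitosis share. For Butyrate over Control the members' median was 0.08 with 2 called higher, Cenpf and Kif23 (5.53% of genes called higher, 5.33% lower), in 135 and 319 cells. For B12+Butyrate over Butyrate 28 were lower and 6 called (median -0.15; 5.27% lower, 2.12% higher), with Ube2c lowest, at 153, 176, 156 and 124 CPM.

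In late monocyte-like cells B12+Butyrate had the lowest summed level and positive share. The members summed to 2489, 2382, 2388 and 1886 CPM, and 20.6% (18.9 to 22.5), 19.0% (17.1 to 21.1), 19.6% (17.6 to 21.8) and 16.4% (14.2 to 18.7) of cells were positive. The share interval of B12+Butyrate overlapped those of Butyrate and B12. Its share was 0.833 times that of B12 (0.703 to 0.987) and 0.860 times that of Butyrate (0.726 to 1.02). All 36 members were lower than in B12, 9 of them called (median -0.28; 1.92% of genes called lower and 1.62% higher), and 35 were lower than in Butyrate, again 9 called (median -0.26; 1.92% lower, 0.595% higher). With 50 CPM added to each level in place of 10, 0 and 3 were called. Cdc20, the activator of anaphase, had 46.3, 42.4, 39.2 and 23.7 CPM. Ccnb1 had 34.7, 35, 32.5 and 19.4 CPM. Cenpf, a kinetochore protein of late G2, had 73.2, 69.2, 57.1 and 39.3 CPM. All 3 genes were lowest in B12+Butyrate. For Cdc20 and Ccnb1 the other libraries lay close together, while for Cenpf B12 was also below Control and Butyrate. Ube2c, at 182, 161, 146 and 108 CPM, and Hmmr, a spindle protein, at 49.1, 40.3, 36.6 and 28.4 CPM, were highest in Control and lowest in B12+Butyrate. Mki67 had 239, 229, 232 and 177 CPM, Birc5 172, 154, 160 and 121 CPM, Plk1 26.5, 22.1, 21.6 and 16.5 CPM and Top2a 218, 231, 241 and 198 CPM. Cdk1, at 58.6, 61.0, 58.8 and 53.2 CPM, and Kif23, at 70.5, 84.6, 66.8 and 62.5 CPM, were among the 3 members that differed least from B12.

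Cdc20, Ccnb1 and Cenpf had the lowest 3 ratios in both comparisons of B12+Butyrate. It was seen after their values were known that these 3 genes and Ube2c are among the 7 genes with the smallest share of UMIs in S-positive cells. Of the other 3 of those 7, Hmmr (-0.28 to B12 and -0.39 to Butyrate), Cenpa (-0.28 and -0.32) and Ccnb2 (-0.30 and -0.23) lay nearer the median of the members. The degradation genes made up 12.4, 11.4, 10.9 and 9.88% of the summed level in this class. The replication list did not follow: B12+Butyrate over B12 had a median of -0.03 (7 of 29 higher) and over Butyrate of 0.06 (22 of 29 higher), while other spindle and cytokinesis genes were lower (median -0.21, 2 of 22 higher, and -0.27, 0 of 22 higher, with Aspm at -0.45). In B12 over Control the same class had 28 of 28 replication genes higher, 7 called (median 0.28, Dut highest at 0.51), and mitosis genes at a median of -0.04 (13 of 36 higher; 0.816% of genes called lower, 1.22% higher), with Hmmr called lower at -0.34. S-positive cells were 32.6% (28.2 to 37.3), 33.0% (27.5 to 38.8), 49.6% (43.6 to 55.7) and 43.7% (36.4 to 51.2) of the mitosis-positive late monocyte-like cells, so the intervals of Control and B12 did not overlap. Butyrate over Control had 27 of 29 replication genes higher (0.16) and a mitosis median of -0.06 (12 of 36 higher, 0 called; 2.33% of genes called lower, 3.22% higher).

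Late monocyte-like cells differ among the libraries in how many still hold primary granule genes: 23.2, 11.7, 17.9 and 8.19% had 10 to 20 such UMIs per 10000. Among the cells under 10 the members summed to 2231, 2199, 2062 and 1690 CPM, and B12+Butyrate was lower than B12 for 36 of 36 members, 7 called (median -0.21; 2.08% of genes called lower), and than Butyrate for 36 of 36, 11 called (median -0.27; 2.11%). Among the cells at 10 to 20 the sums were 3198, 3410, 3465 and 3300 CPM with 5 members called lower than in B12 (median -0.09; 8.44% of genes called lower) and 4 than in Butyrate (median -0.04; 10.9%). The positive share was 17.4, 17.1, 15.8 and 13.4% under 10 and 31.4, 33.7, 37.2 and 49.5% at 10 to 20. In the cells at 10 to 20, B12+Butyrate thus had the highest share (38.8 to 60.1), with an interval apart from that of Control (27.3 to 35.8). The second group was small, with 477, 175, 256 and 92 cells, and the difference between both groups of cells was not tested. With a stricter gate the summed log2 ratio of B12+Butyrate over B12 was -0.425 in place of -0.340.

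The HSC/MPP-like class was small, with 102, 126, 99 and 61 cells, of which 32, 31, 26 and 16 were positive: 31.4% (22.5 to 41.3), 24.6% (17.4 to 33.1), 26.3% (17.9 to 36.1) and 26.2% (15.8 to 39.1). The shares did not differ beyond these intervals. The member levels differed more: 33 of 36 were lower in B12 than in Control, 17 called (median -0.30; 10.5% of genes called lower, 8.38% higher), and 34 were lower in Butyrate than in Control, 18 called (median -0.32; 9.15% lower, 5.03% higher). Cenpa had 128, 57.9, 54.3 and 78.9 CPM, Ube2c 163, 91.3, 73.0 and 104 CPM, and Ccnb1 38.7, 17.5, 19.6 and 38.2 CPM. Control was the highest library for all 3, though for Ccnb1 B12+Butyrate was level with it. Top2a, at 339, 316, 312 and 422 CPM, and Mki67, at 217, 187, 182 and 212 CPM, differed less. B12+Butyrate over B12 had 30 of 36 higher, 20 called (median 0.35; 8.3% of genes called higher, 9.46% lower), with Ccnb1 (0.71) the highest. B12+Butyrate over Butyrate had 33 higher, 13 called (median 0.23; 8.23% higher, 7.84% lower), again with Ccnb1 (0.81) the highest. The replication list went against the mitosis genes in B12 over Control, with 26 of 30 replication genes higher (median 0.15), and along with them in B12+Butyrate over Butyrate, also with 26 of 30 higher (median 0.13). It was near 0 in Butyrate over Control (17 of 30 higher, median 0.02) and in B12+Butyrate over B12 (15 of 30, median 0.00). B12 over Control had 4 of 23 other spindle genes higher (median -0.28, with Nek2 lowest at -1.07). In stage 2, with its larger number of cells, under 1% of all genes were called in either direction, so a called member stands out far less in the HSC/MPP-like class.

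GMP-like cells differed little. Positive shares were 31.5, 27.7, 30 and 30.1%, and 30 of 36 members were lower in Butyrate than in Control, 3 called (Mki67, Bub1 and Anln; median -0.17; 3.03% of genes called lower, 2.25% higher). B12 over Control (9 higher, 27 lower, median -0.08; 1.05% of genes called higher, 1.29% lower) and B12+Butyrate over B12 (22 higher, 14 lower, median 0.02; 0.526% and 1.72%) had 0 members called. In B12+Butyrate over Butyrate 28 were higher, 2 of them called, Bub1 and Aurkb (median 0.09; 0.953% higher, 3.07% lower). In conventional dendritic-like cells Butyrate was low: 32 of 36 members were lower than in Control, 21 called (median -0.39; 9.9% of genes called lower, 11.7% higher), and 35 were higher in B12+Butyrate than in Butyrate, 27 called (median 0.46; 10.8% called higher, 12.5% lower). B12 over Control had 24 lower with 10 called and 2 called higher (median -0.16; 12.7% lower, 18.9% higher), and B12+Butyrate over B12 28 higher with 16 called and 3 called lower (median 0.25; 14.7% higher, 20% lower). Cenpf there had 88.6, 36.7, 86.9 and 71.3 CPM and Ube2c 199, 109, 198 and 138 CPM, from 26, 26, 14 and 23 positive cells, and the positive shares of 24.8, 19.8, 22.6 and 29.1% overlapped in their intervals. B-like cells had 395, 405, 736 and 392 CPM in sum from 13, 10, 8 and 11 positive cells.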

How the data were processed

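Single-cell RNA counts of 4 libraries, 1 per treatment group, were used. The authors deposited raw UMI counts per gene and barcode, produced by Cell Ranger 7.1.0, as per the file headers; the submitters' processing notes name build GRCm39. The sources used here give neither whether intronic reads were counted nor how barcodes were chosen. Barcodes were kept from 500 genes and 1000 UMIs up and with a mitochondrial share of 10% or below: 8752 cells with 120843088 UMIs in Control, 6793 with 92643344 in Butyrate, 8048 with 114640112 in B12 and 7616 with 110877494 in B12+Butyrate. Over 10% mitochondrial UMIs were 8.89, 13.9, 9.43 and 5.34% of barcodes. Pairs of libraries shared 13 to 30 barcode sequences (0.164 to 0.372% of the smaller library).

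Levels are UMIs of a gene per 1000000 UMIs of the class (CPM) with exact Poisson 95% intervals. Shares are of cells thinned to 2000 UMIs without replacement, with exact (Clopper-Pearson) intervals. Cells under 2000 UMIs were left out of shares (173, 147, 237 and 93). Ratios of members and genes are on the log2(CPM + 10) scale, for genes at 10 CPM or more in either library, and were called at 0.32 or more in size. With 1 library per group no test was made. These ratios understate the change of low genes. Ratios of shares have normal intervals on the log scale.

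Gates used marker lists: at least 1000 per 10000 UMIs of secondary granule genes for the neutrophil lineage, with 150 or more (stage 4) or 40 or more (stage 3) of maturation genes and 40 or more of primary granule genes (stage 1); 100 or more of primary granule genes for GMP-like; 40 or more of monocyte genes and 6 markers for monocytes, early with 20 or more primary granule UMIs; and 4 to 6 detected markers for the other classes. Within the same fold of a limit lay 598 cells for secondary granule, 1496 for monocyte and 332 for early monocyte genes. The gate limits, maturation bins and class splits were set after values had been seen. Doublets were kept. A caller that compares each cell with artificial doublets, at 0.8% per 1000 cells, marked 613, 369, 518 and 464 cells (7.00, 5.43, 6.44 and 6.09%), used as an alternative.

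The members and lists were chosen with earlier results of these data known. Genes were named by a rule: Mki67, Top2a, Cdk1, Ccnb1, Cdc20, Plk1, Birc5 and Ube2c throughout, and the 3 highest and 3 lowest members of a comparison described. Genes named for their spread across cells or their place in a second comparison were chosen after their values were seen. Promoters were matched by symbol. The log2 ratios and the exact intervals of shares were tested on simulated data, and the thinning on cells of Control. The gates, the doublet caller, the class makeup and the motif search were not tested in this way. Software was matplotlib 3.10.9, scikit-learn 1.9.0, pandas 2.3.3, scipy 1.17.1 and numpy 2.4.6 under Python 3.11.15.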

Additional observations from a re-analysis of the deposited data

Results flagged for a closer look

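In all cells the share of mitosis-positive cells was 1.16 times as high in B12 as in Control, but 0.970 times as high in B12+Butyrate as in Butyrate. The second ratio over the first is 0.839 (counting interval 0.779 to 0.903), so B12 went with a higher share without butyrate and not with it. At the class makeup of Control the shares were 27.3% in Control and 26.9% in B12, so the higher share in B12 was not seen there. In early monocyte-like cells Butyrate had 1.05 times the share of Control and B12+Butyrate 0.734 times that of B12, and, read the other way, B12 had 1.26 times the share of Control and B12+Butyrate 0.875 times that of Butyrate. The ratio of ratios is 0.696 in both readings (0.527 to 0.920). These were picked from 11 sets of cells (10 classes and all cells), of which 3 had an interval that left out 1. With 1 library per group the difference was not tested, and library and treatment cannot be told apart.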

How the results depend on the processing

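No paired analysis was possible because each group is 1 library. The direction of B12 over Control in all cells turned at the class makeup of Control: its log2 ratio was -0.00601 for the summed level (0.110 as reported) and -0.0245 for the positive share (0.210 as reported). There the level was -0.103 for Butyrate over Control, -0.181 for B12+Butyrate over B12 and -0.0841 for B12+Butyrate over Butyrate, and the share of B12+Butyrate over B12 was -0.22. For B12 over Control the level was 0.12 with the stricter cell filter, 0.125 without called doublets and 0.187 as a mean over cells. Without doublets it was -0.0319 for Butyrate over Control and -0.0484 for B12+Butyrate over Butyrate, and as a mean over cells -0.0736, -0.0702 and, for B12+Butyrate over B12, -0.33. In stage 3, B12+Butyrate over B12 turned without doublets, to 0.0667 (summed level) and 0.241 (member median); in late monocyte-like cells the level of B12 over Control turned to 0.0568 under the stricter gate. The cause was not tested. For the positive share of a class, 124 of 124 alternative values that could be formed lay within the counting interval of the reported one. No value could be formed where either library had 0 positive cells. This left out stage 3 without called doublets, where Butyrate, B12 and B12+Butyrate had 0, so that tally does not cover it. Of the member medians, 162 of 192 lay within the quartiles of the members. Summed levels, whose counting intervals are narrow, held less often: 58 of 128 alternative values per class lay within them (68 moved and 2 turned), and 8 of 20 over all cells (11 moved and 1 turned). Numbers of called members held within 1.5 times in 113 of 160 and moved, among others, with the pseudocount: in late monocyte-like cells, 9 in B12+Butyrate over B12 became 20 at 1 CPM and 0 at 50 CPM, and 9 over Butyrate became 16 and 3. In HSC/MPP-like cells 17, 18, 20 and 13 in the 4 comparisons became 11, 9, 10 and 4 at 50 CPM. Without doublets 6 members of early monocyte-like cells in B12+Butyrate over Butyrate became 13. In small classes the cell number limits the shares: 16 of 61 HSC/MPP-like cells of B12+Butyrate give an interval of 15.8 to 39.1%.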

Other observations

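Barcodes left out for over 10% mitochondrial UMIs (861, 1099, 847 and 431) also held the mitosis genes, at 2718, 2389, 2713 and 2419 CPM. Of those among them with 2000 UMIs or more, 44.1% in Control, 35% in Butyrate, 46.8% in B12 and 33.7% in B12+Butyrate were mitosis-positive. These shares leave the shallower barcodes out and have no interval here. The 2 libraries with butyrate were lower than the 2 without it. The called doublets were positive at 46.7, 39.0, 47.7 and 40.1%, with 3213, 2729, 3266 and 2886 CPM, in the same arrangement. In B-progenitor-like cells the members summed to 4037, 4020, 5557 and 4246 CPM, from 54, 55, 25 and 60 cells, with 13, 14, 7 and 15 positive. Basophil/mast-like cells were positive at 19.6, 24.4, 30.8 and 16.7%, from 11, 10, 16 and 7 positive cells.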
